A study of Mus musculus with 4 samples.

Results

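The nuclear genes for the subunits of the 5 oxidative phosphorylation complexes were compared between kidneys of mice after bile duct ligation (BDL) and after a sham operation. A gene was taken as a subunit gene where its RefSeq symbol began with Ndufa, Ndufb, Ndufc, Ndufs or Ndufv and a digit, with Uqcr, with Cox4 to Cox8 or with Atp5, or was Ndufab1, Cyc1 or Sdha to Sdhd. This rule took 115 probes of 86 genes, and 84 of these genes (113 probes) passed the filter on dim probes, among 24043 measured features in all. They comprised 38 genes of complex I, 4 of complex II, 9 of complex III, 16 of complex IV and 17 of complex V. The 2 genes that did not pass were Cox7b2 and Cox8c, testis-type isoforms of complex IV subunits. Cox7b2 was well above background only on 1 BDL array and Cox8c on none, while Cox6b2, another testis-type isoform, was well above background on all 4 arrays. The 13 subunits encoded by mitochondrial DNA were not analysed here.

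Oxidative phosphorylation is the last step of nutrient oxidation in the inner mitochondrial membrane. Complexes I and II feed electrons from NADH and succinate into coenzyme Q, complex III passes them to cytochrome c, complex IV hands them to oxygen, and complex V (ATP synthase) makes ATP from the proton gradient that complexes I, III and IV build up. The kidney, and its proximal tubule above all, is rich in mitochondria because active transport of salt and solutes consumes much ATP, and many subunit genes share promoter elements for the factors NRF1, GABPA (an ETS factor) and YY1.

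Total RNA of whole mouse kidney was measured 2 weeks after surgery on 1-colour arrays, with 2 arrays per group (sham 1, sham 2, BDL 1 and BDL 2) and 1 sample per array. BDL ties off the bile duct and so stops bile flow from the liver (cholestasis), and the sham group had surgery without the ligation. The design text calls the replicates biological, and the labels give the tissue and the operation of each mouse but no strain, sex or age. In bulk tissue, fewer cells of a type and less RNA per cell cannot be told apart.

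Each value is a log2 processed signal less its array's 75th percentile, and a difference is the BDL mean minus the sham mean on that scale, with its standard error (SE) from limma, n = 2 arrays per group. On each array, 56.6% to 62.2% of the probes were well above background and 0 spots were saturated. At an adjusted p of 0.05, limma called 0 of the 24043 features (0%), and at an unadjusted p of 0.05 it called 1352 (5.62%). The 12 proximal tubule markers were all measured and split evenly (6 higher and 6 lower in BDL, median -0.01), with a summed level, in multiples of the 75th percentile, of 1724 and 1409 in sham and 1351 and 1412 in BDL kidneys. Differences of these 12 ran from -1.86 (Slc22a7, SE 0.54) to 0.80 (Slc22a8, SE 0.22). The phosphate transporter Slc34a1 stood at 8.44 and 8.17 in sham and 8.20 and 8.14 in BDL kidneys. In BDL, the 6 thick ascending limb markers were all lower (median -0.24). The 6 intercalated cell and 6 principal cell markers were all higher (medians 0.65 and 0.19). Of 6 distal convoluted and connecting tubule markers, 5 were higher (median 0.52). None of these markers passed the test.

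The subunit genes leaned slightly to lower values in BDL, by amounts that were mostly smaller than 0.25. Of the 84 genes, 63 were lower and 21 higher in BDL (75% lower, against 51.4% of all features). Both BDL arrays lay below both sham arrays for 30 genes, against 19.2% of all features, and above both for 5, against 17.4% (36.6% of all features had no overlap in either direction). No subunit gene passed the test (0 of 84, as 0% of all features), and the smallest limma adjusted p was 0.812. Of the 84 genes, 1 had an unadjusted limma p below 0.05, against 5.62% of all features. The median difference was -0.09, against -0.01 over all features, and 66 genes differed by less than 0.25 in either direction. A further 11 were lower and 7 higher by more than that. With quantile normalization between arrays, 50 of 84 genes were lower and the median was -0.04.

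**Figure D1:**
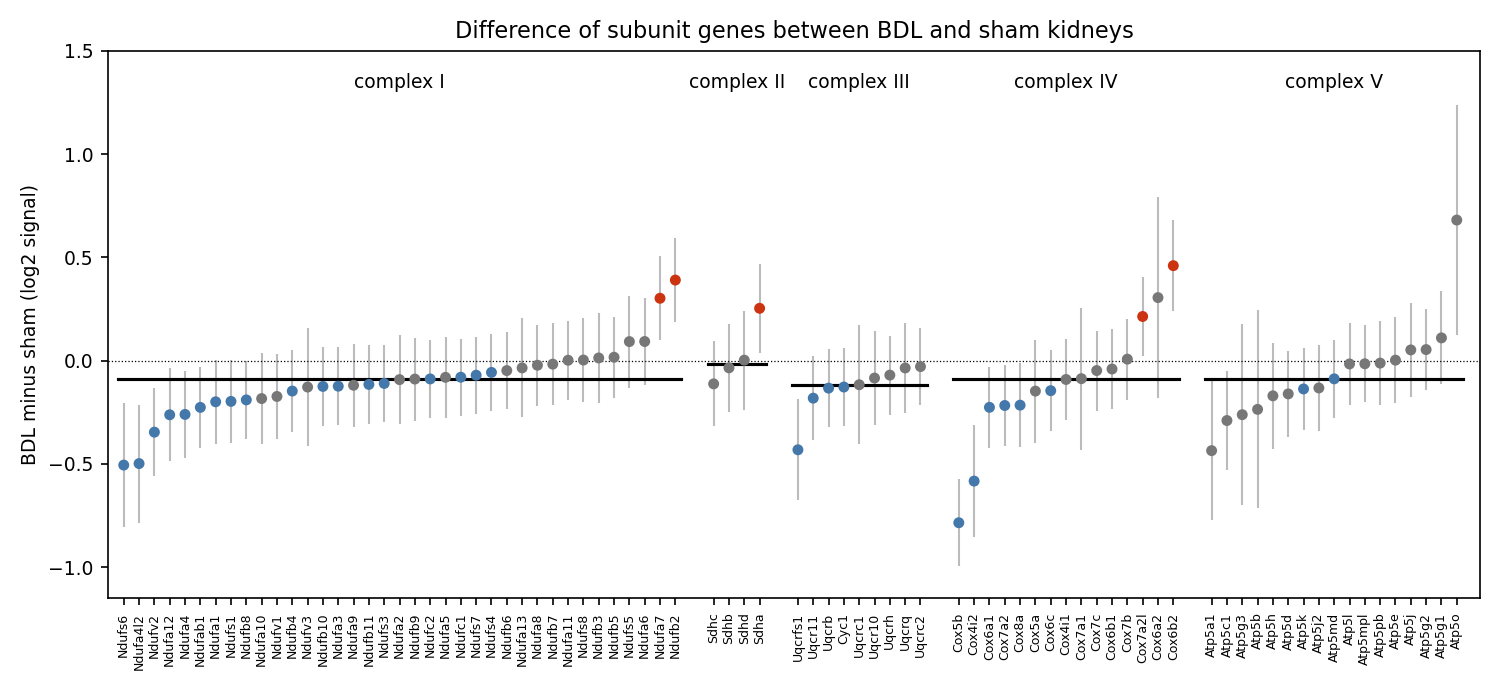
Difference of subunit genes (BDL minus sham, log2 signal, y axis) by complex, with points for the fitted difference, bars for 1 SE and black lines for the median of each complex. Blue points mark genes with both BDL arrays below both sham arrays, red points the reverse and grey points overlap. Cox8b (1.82, SE 2.85) lies outside the axis and is not drawn, and the medians of complexes I, III, IV and V lie between -0.12 and -0.09.

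The precision was enough to bound most of these genes within 2-fold in either direction. For 72 of the 84 the 95% interval of the difference lay between -1 and 1 (14393 of all 24043 features), and the median SE was 0.20, against 0.24 over all features. Replicates of subunit genes also lay close together, with a median gap of 0.15 between the sham arrays and 0.14 between the BDL arrays (0.31 and 0.23 over all features). Most subunit genes were bright, since 79 of the 84 were above the array's 75th percentile on all 4 arrays. Of all 24043 features, 10871 were. The part of brightness in the SE, in the gaps and in the lean to lower values was not tested.

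The lean to lower values was not shared evenly by the arrays. Sham 1 was the highest array for 60 of the 84 genes (71.4%, against 35.4% of all features), and BDL 2 the lowest for 42 (50%, against 20.7%). After each gene was centred on its mean, the median over the 84 genes was 0.10 on sham 1, -0.01 on sham 2, 0.01 on BDL 1 and -0.08 on BDL 2. Sham 2 and BDL 1 thus differed little from each other over the group as a whole. In both groups, the array numbered 1 had the higher median. Without sham 1, 52 of 84 genes were lower in BDL, and without BDL 2, 50 were. The median was -0.04 in both cases. Sham 1 was also the highest array for the summed proximal tubule markers, and the part of either array in the subunit genes was not tested.

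**Figure D2:**
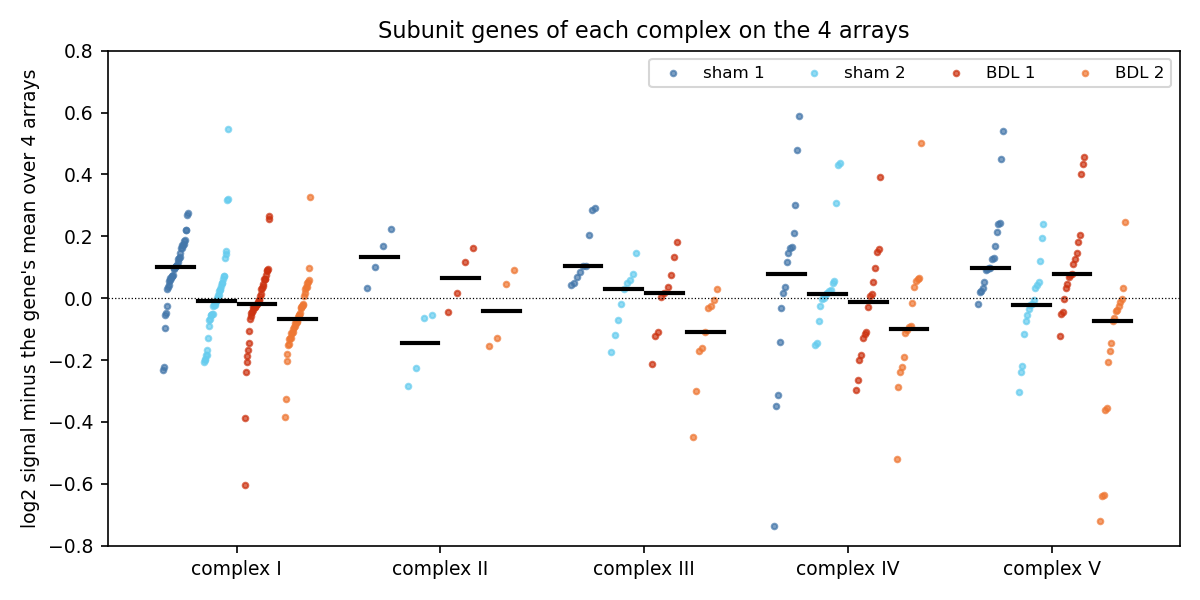
Log2 signal of each subunit gene minus its mean over the 4 arrays (y axis), by complex and array, with black lines for medians. The median of sham 1 is highest and above 0 in every complex, and that of BDL 2 is below 0 in every complex; Cox8b on all arrays and Atp5o on sham 2 lie outside the axis.

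Promoter sequence was examined because the subunit genes are known to share elements there. RefSeq windows of 300 bases (GRCm38.p6, 250 before to 50 after the start) were matched for 68 of the 84 genes. On either strand, the full palindromic NRF1 element (GCATGCGC with a further GC before it) was present for 5 of the 68 genes (7.35%, against 1.07% of 27025 genes in the table) and the shorter GCATGCGC, which lies within it, for 10 (14.7% against 3.05%). The ETS element CCGGAAG was found for 17 (25% against 9.93%). The YY1 element AAGATGGCG was found for 7 (10.3% against 1.64%), and the looser AANATGGC, which every AAGATGGCG also matches, for 17 (25% against 6.96%). The ERR elements TGACCTTG and AAGGTCA, the second of which every match of the first also holds on the other strand, were found for 4 (5.88% against 1.76%) and 8 (11.8% against 5.38%). TATAAA was found for 7 (10.3% against 15.7%). The median difference was -0.12 with the full NRF1 element and -0.08 without, and -0.03 with GCATGCGC and -0.09 without. It was -0.05 with CCGGAAG and -0.09 without, and -0.08 with either YY1 element and -0.09 without. With either ERR element it was -0.01 and without it -0.09, and with TATAAA -0.02 and without it -0.09.

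Printed below are the 250 bases before the start, read 5′ to 3′ on the gene's strand, for the 4 genes with the full NRF1 element in that stretch. For the fifth, Uqcrc1, it lies after the start. Cox5b is added as the subunit gene with the smallest p, and holds none of the searched elements in its window. Capitals mark the searched elements, and in Cox6a1 the second is CCGGAAG on the opposite strand.
Atp5g2, chr15:102671048-102671297, minus strand: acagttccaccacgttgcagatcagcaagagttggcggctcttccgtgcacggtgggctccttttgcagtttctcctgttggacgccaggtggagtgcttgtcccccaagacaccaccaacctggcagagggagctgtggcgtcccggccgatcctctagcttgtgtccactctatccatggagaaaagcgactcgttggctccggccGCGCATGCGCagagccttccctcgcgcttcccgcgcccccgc
Atp5k, chr5:108434400-108434649, minus strand: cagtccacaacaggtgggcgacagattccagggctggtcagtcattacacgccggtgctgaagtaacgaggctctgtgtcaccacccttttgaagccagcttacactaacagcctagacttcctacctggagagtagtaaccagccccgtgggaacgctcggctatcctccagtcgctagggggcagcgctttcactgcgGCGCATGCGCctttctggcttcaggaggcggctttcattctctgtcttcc
Cox6a1, chr5:115348959-115349208, minus strand: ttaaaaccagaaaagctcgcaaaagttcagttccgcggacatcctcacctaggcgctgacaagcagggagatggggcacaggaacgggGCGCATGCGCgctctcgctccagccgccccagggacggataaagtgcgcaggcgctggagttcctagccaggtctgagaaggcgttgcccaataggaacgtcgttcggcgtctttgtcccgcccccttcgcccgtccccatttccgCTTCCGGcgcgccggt
Ndufa11, chr17:56717512-56717761, plus strand: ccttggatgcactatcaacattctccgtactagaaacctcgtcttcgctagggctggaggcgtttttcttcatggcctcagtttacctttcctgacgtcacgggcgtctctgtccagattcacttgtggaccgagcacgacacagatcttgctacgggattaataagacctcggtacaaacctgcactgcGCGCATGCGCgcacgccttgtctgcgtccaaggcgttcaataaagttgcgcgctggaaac
Cox5b, chr1:36691237-36691486, plus strand: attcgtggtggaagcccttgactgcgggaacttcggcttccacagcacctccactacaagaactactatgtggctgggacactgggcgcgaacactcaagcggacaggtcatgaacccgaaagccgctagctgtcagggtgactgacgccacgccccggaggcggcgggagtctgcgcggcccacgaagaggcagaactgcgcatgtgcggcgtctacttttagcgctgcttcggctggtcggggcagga

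The 4 genes with the full NRF1 element before the start had differences from -0.23 to 0.05. Atp5g2, a c-ring subunit of ATP synthase, differed by 0.05 (SE 0.20), and Ndufa11, a membrane-arm subunit of complex I, by 0.00 (SE 0.19). Atp5k, the e subunit of ATP synthase, stood at 7.19 and 7.14 in sham and 7.13 and 6.93 in BDL kidneys, a difference of -0.14 (SE 0.20). Cox6a1, the widely expressed form of subunit VIa, had 9.38 and 9.18 in sham and 9.05 and 9.06 in BDL kidneys, a difference of -0.23 (SE 0.20).

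Complex I, which takes electrons from NADH, was slightly lower in BDL in most of its genes. Of 38 genes, 29 were lower and 9 higher, 18 had both BDL arrays below both sham arrays and 2 had both above, and 0 passed the test. Over all features, 19.2% had both BDL arrays below and 17.4% had both above. The median was -0.09, with a range from -0.51 to 0.39. The 7 core subunits, which carry the flavin and the iron-sulfur clusters, had 5 lower members and a median of -0.11, beside 24 of 31 and -0.09 among the accessory subunits. Thus the core and accessory subunits gave nearly the same median.

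Among the core subunits, Ndufv2, an iron-sulfur protein of the NADH-binding module, had the lowest difference. It stood at 6.06 and 6.34 in sham and at 5.79 and 5.92 in BDL kidneys, a difference of -0.35 (SE 0.21, limma adjusted p = 0.872). Ndufs1, which holds several iron-sulfur clusters of the same module, had 6.62 and 6.44 in sham and 6.26 and 6.40 in BDL kidneys (-0.20, SE 0.20). In both genes each BDL array was below each sham array, and in Ndufs1 the difference was no larger than its SE. Ndufv1, which binds NADH and the flavin, overlapped between the groups, with 7.63 and 7.48 in sham and 7.49 and 7.26 in BDL (-0.17, SE 0.21).

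Among the accessory genes, Ndufs6, a zinc-binding subunit near the NADH module, had the lowest difference, 7.58 and 7.71 in sham against 6.79 and 7.49 in BDL (-0.51, SE 0.30, limma adjusted p = 0.872). BDL 1 was the low array, and without it the difference was -0.16. Ndufa4l2, a paralogue of Ndufa4 known as a target of the hypoxia factor HIF-1, was close to the array's 75th percentile, with -0.21 and 0.39 in sham and -0.55 and -0.27 in BDL kidneys (-0.50, SE 0.29, and -0.20 without sham 2). Ndufa4, which encodes a protein since assigned to complex IV, differed by -0.26 (SE 0.21). Ndufb2, a subunit of the membrane arm, went the other way, at 4.56 and 4.61 in sham and 4.85 and 5.11 in BDL kidneys (0.39, SE 0.21, limma adjusted p = 0.872). Ndufa7 was the other complex I gene with both BDL arrays above both sham arrays (0.30, SE 0.20).

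**Figure D3:**
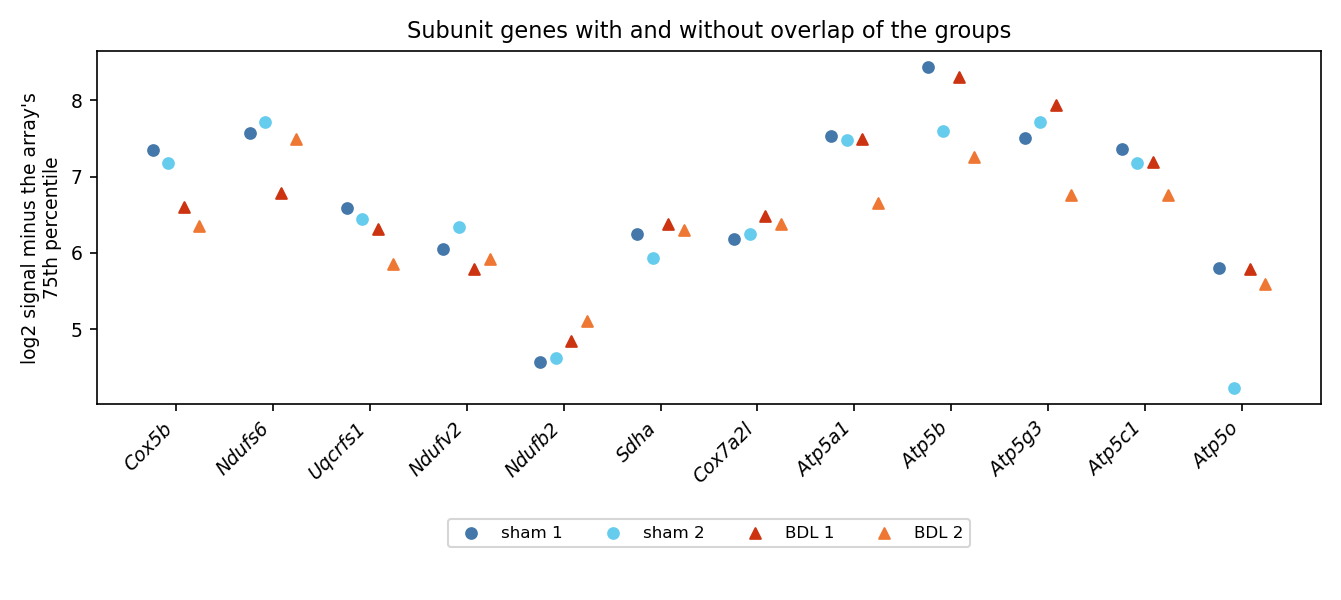
Log2 signal minus the array's 75th percentile (y axis) of 12 subunit genes, with circles for sham and triangles for BDL arrays. Both BDL arrays lie below both sham arrays in Cox5b, Ndufs6, Uqcrfs1 and Ndufv2 and above them in Ndufb2, Sdha and Cox7a2l, while BDL 2 is the lowest array in Atp5a1, Atp5b, Atp5g3 and Atp5c1 and sham 2 alone is low in Atp5o.

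Complex II, which oxidises succinate and also belongs to the citric acid cycle, showed no common direction. Of its 4 genes 2 were lower and 2 higher, 0 passed the test, and the median was -0.02. That median was 0.04 with quantile normalization and 0.01 with the mean of the probes of each gene. Sdha, the flavoprotein that oxidises succinate, had 6.25 and 5.93 in sham and 6.38 and 6.31 in BDL kidneys (0.25, SE 0.21, limma adjusted p = 0.888). Both BDL arrays were above both sham arrays, and without sham 2, the lowest array, the difference was 0.09. Sdhb, the iron-sulfur subunit, stood at 7.53 and 7.37 in sham and 7.55 and 7.28 in BDL (-0.04, SE 0.21), with full overlap. Of the membrane anchors, Sdhc differed by -0.11 (SE 0.21) and Sdhd by 0.00 (SE 0.24).

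Complex III, the cytochrome bc1 complex, was lower in BDL by group mean in all 9 of its genes, with differences from -0.43 to -0.03, and 0 passed the test. The median was -0.12, and 4 genes had both BDL arrays below both sham arrays, against 19.2% of all features. The count of lower genes was 7 of 9 with quantile normalization, and 5 of 9 either without sham 1 or without BDL 2. Uqcrfs1, the Rieske iron-sulfur protein that accepts electrons from coenzyme Q, had the lowest difference, with 6.58 and 6.44 in sham against 6.31 and 5.85 in BDL kidneys (-0.43, SE 0.25, limma adjusted p = 0.872). BDL 2 was the lower of the BDL arrays, and the difference without it was -0.20. Cyc1, the cytochrome c1 subunit that donates to cytochrome c, had 7.17 and 7.16 in sham and 6.98 and 7.10 in BDL kidneys (-0.13, SE 0.19). The small subunits Uqcr11 (-0.18, SE 0.20) and Uqcrb (-0.13, SE 0.19) also had both BDL arrays below both sham arrays. Uqcrc1, a large core protein, overlapped between the groups, at 5.67 and 5.21 in sham and 5.56 and 5.08 in BDL (-0.12, SE 0.29), and the arrays of each group differed by more than the group means did.

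Complex IV, cytochrome c oxidase, held the gene with the smallest p and also the least reproducible gene. Of 16 genes 11 were lower and 5 higher, 0 passed the test, and the median was -0.09. In 6 genes both BDL arrays lay below both sham arrays (19.2% of all features), and in 2 both lay above (17.4%). With quantile normalization 8 were lower and 8 higher. Cox5b, which encodes the zinc-binding subunit Vb, stood at 7.35 and 7.18 in sham kidneys and at 6.61 and 6.35 in BDL kidneys. The gap between the groups was larger than that between the arrays of either group. The difference was -0.79 (SE 0.21), or 1.72-fold higher in sham, with a 95% interval from -1.34 to -0.23, an unadjusted p of 0.0162 and a limma adjusted p of 0.812. With any 1 array left out it ranged from -0.91 to -0.66. Cox5b had 1 probe, and the promoter printed above held none of the searched elements.

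Other complex IV genes that are widely expressed differed less than Cox5b. Cox4i1, the common form of subunit IV, had 8.32 and 8.17 in sham and 8.21 and 8.09 in BDL kidneys (-0.09, SE 0.20). Cox5a, which contacts it on the matrix side, had 8.32 and 7.87 in sham and 7.84 and 8.06 in BDL (-0.15, SE 0.25). Both genes overlapped between the groups, whereas Cox7a2, the widely expressed form of subunit VIIa, did not, with 6.84 and 6.73 in sham against 6.65 and 6.49 in BDL (-0.22, SE 0.20). Cox7a2l, which encodes a factor that joins complexes III and IV into supercomplexes, was 6.18 and 6.25 in sham and 6.48 and 6.37 in BDL kidneys (0.21, SE 0.19), and its 3 probes gave 0.21, 0.23 and 0.29.

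Isoforms known from other tissues or conditions gave differences of either sign, and none passed the test. Cox4i2, a form of subunit IV linked to oxygen sensing, had -0.21 and -0.80 in sham and -1.09 on both BDL arrays (-0.58, SE 0.27, limma adjusted p = 0.872). The sham arrays were 0.59 apart, about as much as the group means, and the difference was -0.29 without sham 1. The testis-type Cox6b2 stood at -0.21 and -0.04 in sham and 0.50 and 0.17 in BDL kidneys (0.46, SE 0.22, limma adjusted p = 0.872), with both BDL arrays above both sham arrays. The muscle forms Cox6a2 (0.30, SE 0.49) and Cox7a1 (-0.09, SE 0.34) overlapped widely. Cox6a2 had -1.60 and -0.43 in sham and -1.06 and -0.36 in BDL, and Cox7a1 had 4.18 and 4.97 in sham and 4.68 and 4.29 in BDL.

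Cox8b, the form of subunit VIII of heart, muscle and brown fat, was high on a single array. It had -2.28 and -2.36 in sham kidneys, 3.80 on BDL 1 and -4.80 on BDL 2, so that BDL 1 was far above and BDL 2 below both sham arrays. The difference of 1.82 had an SE of 2.85 (limma adjusted p = 0.930), and it was -2.48 without BDL 1 and 6.12 without BDL 2. Adipocyte genes were likewise higher on BDL 1 than on BDL 2. Cidea, a lipid droplet protein of brown fat, had -2.80 and -2.15 in sham, 4.64 on BDL 1 and -4.52 on BDL 2, and Ucp1, the uncoupling protein of brown fat, had -6.37 and -4.62 in sham, 0.42 on BDL 1 and -7.26 on BDL 2. Ucp1 was well above background only on sham 2 and BDL 1. Of the 7 adipocyte markers 3 were measured (Cfd, Cidea and Cidec), and their summed level, in multiples of the 75th percentile, was 0.499 to 3.66 in sham and 0.105 to 123 in BDL kidneys. The 5 urothelium markers, all measured, had BDL 1 highest and BDL 2 lowest too, with summed levels of 2.61 and 8.03 in sham kidneys, 54.3 on BDL 1 and 1.22 on BDL 2. Of the skeletal muscle genes, Ckm, Mb and Myh4 were not well above background on any array, and Acta1 was so on sham 2 (-3.83) and BDL 1 (-3.07) only. The part of other tissue in the Cox8b value was not tested.

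**Figure D4:**
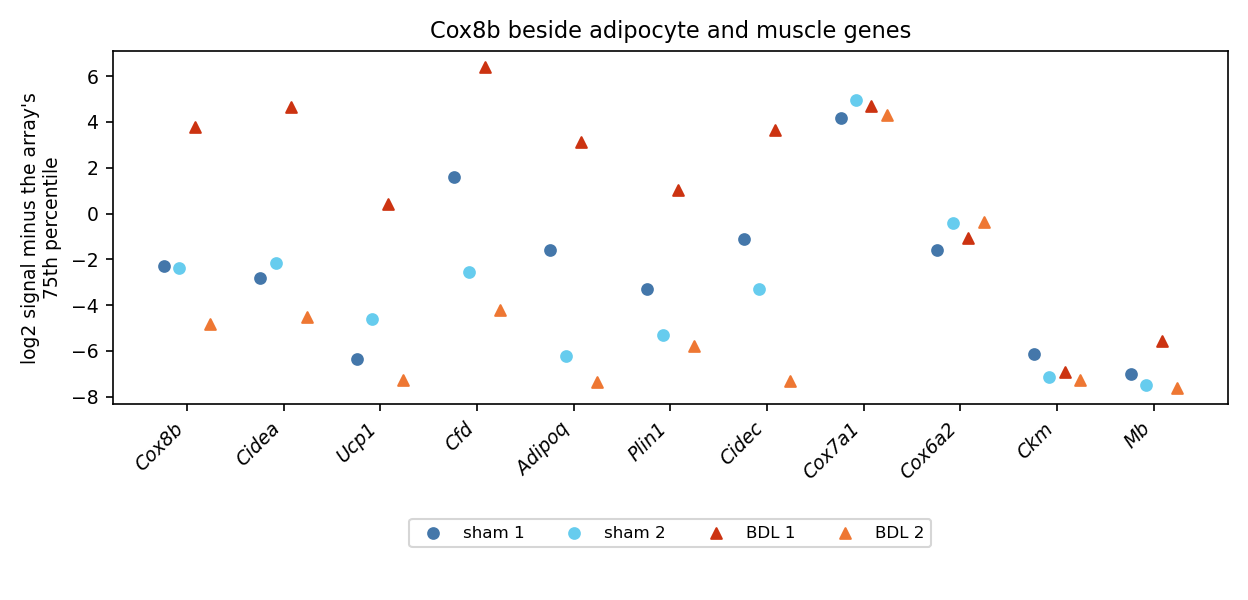
Log2 signal minus the array's 75th percentile (y axis) of Cox8b, of adipocyte and muscle markers and of the muscle-type subunit genes Cox7a1 and Cox6a2, with circles for sham and triangles for BDL arrays. BDL 1 is the highest array in Cox8b, Cidea, Ucp1, Cfd, Adipoq, Plin1 and Cidec, and BDL 2 is the lowest in Cox8b, Cidea and Cfd; on BDL 2 the other 4 were not well above background, where points have no order.

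Complex V, the ATP synthase, leaned to lower values by its median only where sham 1 and BDL 2 were both kept. Of 17 genes 12 were lower and 5 higher, 0 passed the test, and the median was -0.09. In 2 genes (Atp5k and Atp5md) both BDL arrays lay below both sham arrays (19.2% of all features), and in 0 both lay above (17.4%). Without BDL 2 the median was 0.04 and 7 of 17 were lower, and without sham 1 it was 0.01 with 8 lower. Of the 5 genes of the catalytic head, 4 were lower in BDL with a median of -0.24, but none without overlap, and the other 12 genes had a median of -0.02. The head's centred medians were 0.24 on sham 1, -0.02 on sham 2, 0.15 on BDL 1 and -0.36 on BDL 2, so that BDL 2 stood apart from the rest.

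Atp5a1, the alpha subunit of the head, stood at 7.53 and 7.48 in sham and at 7.49 and 6.65 in BDL kidneys. BDL 1 was level with the sham arrays and only BDL 2 was low, and the difference of -0.44 (SE 0.34, limma adjusted p = 0.885) was -0.01 without BDL 2. Atp5b, the catalytic beta subunit, had 8.44 and 7.60 in sham and 8.30 and 7.26 in BDL (-0.24, SE 0.48), a larger gap within each group than between them. Atp5c1, the gamma subunit of the rotating shaft, had 7.36 and 7.17 in sham and 7.19 and 6.76 in BDL (-0.29, SE 0.24), while its other probe gave 0.24. Atp5g3, a c-ring subunit, had 7.51 and 7.72 in sham and 7.94 and 6.76 in BDL (-0.26, SE 0.44), so that BDL 1 was the highest and BDL 2 the lowest array.

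Atp5o, which links the head to the peripheral stalk, had the largest positive difference after Cox8b. Its values were 5.80 and 4.22 in sham and 5.78 and 5.60 in BDL kidneys (0.68, SE 0.56, limma adjusted p = 0.888). Sham 2 alone was low, and without it the difference was -0.11. Gaps of more than 0.75 between the arrays of 1 group were found for 7 of the 84 subunit genes, namely Atp5o, Atp5b, Atp5a1, Atp5g3, Cox8b, Cox6a2 and Cox7a1. Between the sham arrays such a gap was found for 4 of the 84 genes, against 16.8% of all features. Between the BDL arrays it was found for 4 of the 84, against 10.1%.

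Several genes had more than 1 probe, which gave a check within the arrays. Of 22 such genes with 51 retained probes, 17 had the same sign on every probe and 20 had all probes within 0.2 of each other. The 5 with probes of both signs were Atp5c1, Atp5l, Ndufb11, Ndufv3 and Sdhb, and the largest gap was 0.53, in Atp5c1. RefSeq lists 19 pseudogenes with symbols under the same rule, among them copies of Cox5b, Atp5c1, Atp5k, Atp5l, Ndufs6 and Uqcrh, and signal from such copies was not tested.

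Genes that act on the complexes were read from the same fit, and 0 passed in any list. The assembly factors leaned lower, in 9 of 14 measured for complex I (median -0.14), 8 of 9 for complexes II and III (-0.22), 19 of 21 for complex IV (-0.15) and 4 of 5 for complex V (-0.13), against 51.4% and -0.01 over all features. Sham 1 was again the most frequent highest array, for 9, 6, 15 and 3 of these genes in the same order. The most frequent lowest array was BDL 1, not BDL 2, for complex I (6), complexes II and III (7) and complex IV (13), and for complex V sham 2 (3). Bcs1l, the chaperone that inserts the Rieske protein into complex III, had 3.20 and 3.11 in sham and 2.24 and 2.91 in BDL kidneys (-0.58, SE 0.29). Both it and the Rieske gene Uqcrfs1 had each BDL array below each sham array, as had 19.2% of all features. The lower BDL array was BDL 1 in Bcs1l and BDL 2 in Uqcrfs1. A link between these genes was not tested. Sdhaf2, which attaches the flavin to Sdha, differed by -0.32 (SE 0.22). Acad9, an assembly factor of complex I, had 4.85 and 4.52 in sham and 3.99 and 4.36 in BDL (-0.51, SE 0.25), while Tmem186, of the same assembly step, was higher (0.40, SE 0.20). Sco1 and Coa6, which bring copper to complex IV, each differed by -0.34 (SE 0.21 and 0.28), and the complex V factors Atpaf2 and Atpif1 by -0.25 (SE 0.24) and -0.14 (SE 0.23).

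The mobile carriers cytochrome c and coenzyme Q, with the enzymes that make them, had 10 of 14 genes lower and a median of -0.09. Pdss1, which builds the tail of coenzyme Q, differed by -0.45 (SE 0.28), and Coq2, which attaches it, by -0.31 (SE 0.23). Carriers that exchange ATP, phosphate and protons had 4 of 11 lower and a median of 0.02. The highest were Slc25a30, a mitochondrial carrier of the kidney, at 0.68 and 0.58 in sham and 1.25 and 1.05 in BDL (0.52, SE 0.20, limma adjusted p = 0.872), and Ucp3, an uncoupling protein relative (0.34, SE 0.23).

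Regulators of respiratory genes showed no common direction, with 9 of 17 lower and a median of -0.01. Of the 17, 1 had an unadjusted limma p below 0.05, against 5.62% of all features. Gabpb1, the partner of GABPA at the ETS element, had 1.39 and 1.35 in sham and 0.87 and 0.80 in BDL kidneys (-0.54, SE 0.19, unadjusted p = 0.0391, limma adjusted p = 0.872). Its groups were further apart than its replicates. Ppard, a nuclear receptor for fatty acids, differed by -0.47 (SE 0.27). Genes that copy and transcribe mitochondrial DNA had 7 of 14 lower and a median of -0.01. Of these 14 too, 1 had an unadjusted limma p below 0.05. Tfb1m, which methylates mitochondrial ribosomal RNA, stood at 1.83 and 1.43 in sham and 0.67 and 1.02 in BDL (-0.78, SE 0.26, unadjusted p = 0.0313, limma adjusted p = 0.862). Mterf3, a factor of mitochondrial transcription and ribosome assembly, was 0.30 higher (SE 0.19). Of the 10 genes for cristae and the inner membrane 6 were lower (median -0.03). Among them Apoo, of the cristae junction complex, differed by -0.27 (SE 0.20) and Crls1, the cardiolipin synthase, by 0.32 (SE 0.25).

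**Figure D5:**
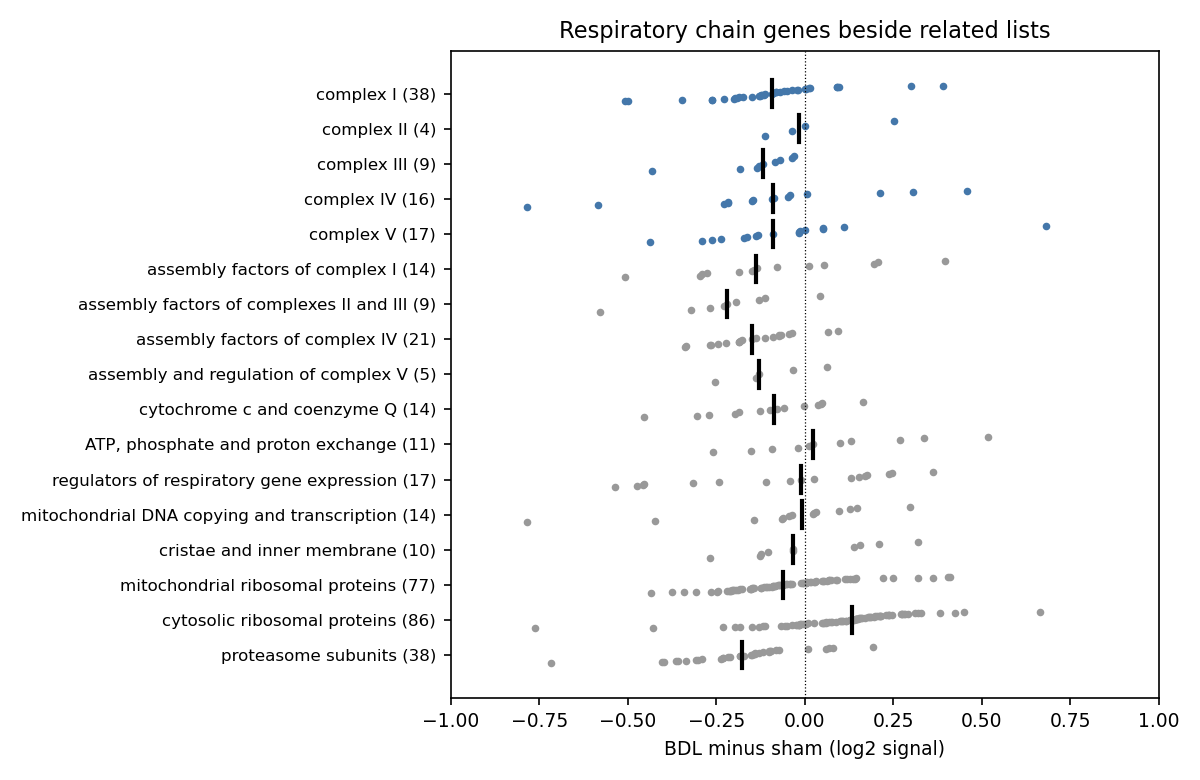
Difference of each gene (BDL minus sham, log2 signal, x axis) in the 5 complexes (blue) and in related gene lists (grey), with the number of measured genes in brackets and black lines for medians. The medians of the complexes and assembly factors lie between -0.22 and -0.02, that of the cytosolic ribosomal proteins at 0.13, and 5 genes beyond -1 or 1 (Cox8b, Rps3, Psmb8, Psmb9 and Psmb10) are not drawn.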

How the data were processed

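Per the file headers, the authors deposited scanner output of Agilent Feature Extraction 11.0.1.1, whose processed signal is a linear intensity after removal of background and of a spatial trend, with no scaling between arrays. The authors' value table holds that intensity divided by 1 constant for each array. Flags mark control, outlying and well above background spots, per the file headers.

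Log2 processed signals were scaled to each array's 75th percentile (712 and 849 for sham, 741 and 945 for BDL). Of 55681 probes, 13 were dropped for flags. The 32280 probes kept were well above background on every array of a group or of both. RefSeq's GRCm38.p6 table named the accessions and gave the promoters, and no other position was used since the array grid lists mm9. A gene was read from its brightest probe, which left 24043 features, 15022 of them with a symbol.

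The test was limma 3.58.1 (R 4.3.3, lmFit and eBayes, two-sided) with the operation as its single term. Its p was adjusted after Benjamini and Hochberg over all features at 0.05. On simulated arrays its mean fitted difference was checked against added changes of at least 1 on the log2 scale. Power for the smaller differences of most subunit genes was not checked. Precision is limited by having 2 arrays per group. An exact permutation test could not reach a p under 0.333. The arrays shared 1 slide and 1 scan time.

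Named are core or catalytic genes, up to 4 genes per complex with the smallest p without overlap, those at least 1 apart, complex IV isoforms, and 2 genes per related list; 1 gene that this rule takes is counted but not reported here. Ndufa4, Ndufa7, Ndufa11, Atp5c1, Atp5g2, Atp5g3, Atp5o, Slc34a1, Slc22a7, Slc22a8, Rps3, Psmb8, Psmb9 and Psmb10 were added after their values were seen, as were the fat and muscle genes set beside Cox8b. The counts of the other tubule markers were also added then. Members and lists were chosen with earlier results of these data known. The alternatives were quantile normalization, normexp background, the authors' table, other filters, the mean of probes, array weights, the replicate block, leaving out each array and other member lists. Scaling by the median of retained features was added after seeing the data.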

Additional observations from a re-analysis of the deposited data

How the results depend on the processing

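Under every alternative 0 subunit genes and 0 of all features passed the limma threshold, and with all 4 arrays the medians of complexes I, III, IV and V stayed below 0 under each scaling, background and filter. Quantile normalization moved the median of complex IV to -0.025, and gave Cox4i1 0.0079 and Sdhb 0.014, while the mean of the probes gave Sdhb 0.013. With 1 array left out (the lone array assumed to vary like the others), medians ran from -0.15 to -0.06 in complex I, -0.13 to -0.06 in complex IV, -0.17 to 0.14 in complex II, -0.15 to -0.012 in complex III and -0.14 to 0.039 in complex V. Differences that turned sign included those of Cox8b (-2.48 to 6.12), Atp5b (-0.76 to 0.28), Cox6a2 (-0.28 to 0.89), Cox7a1 (-0.48 to 0.30), Sdhb (-0.17 to 0.10), Sdhd (-0.22 to 0.23), Uqcrc1 (-0.36 to 0.12), Cox5a (-0.37 to 0.078), Atp5o (-0.11 to 1.47), Atp5g3 (-0.85 to 0.33), Atp5g2 (-0.046 to 0.15) and Ndufa11 (-0.066 to 0.069). The cause was not tested. The number of lower subunit genes ran from 50 to 72 of 84. The labels speak of pairs of RNAs but do not say whether arrays of the same number share a litter, day or surgery. The numbers were therefore not taken as pairs in the main fit. Over all features, deviations of same-numbered arrays from the group means correlated at 0.06. Over the subunit genes, the centred median was higher on sham 1 than on sham 2 (0.10 and -0.01). It was also higher on BDL 1 than on BDL 2 (0.01 and -0.08). Whether arrays of the same number share an effect was not tested. A fit with the replicate block passed 0 features (1448 at an unadjusted p below 0.05, smallest adjusted p 0.314). The authors' values held 82 of the subunit genes, of which 63 were lower. With Ndufa4 counted in complex IV, both medians stayed at -0.09.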

Other observations

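Other protein machines of the cell were not all placed as the respiratory genes were. Of 86 cytosolic ribosomal protein genes 22 were lower in BDL (median 0.13), against 51.4% of all features. BDL 1 was the highest array for 75 of the 86, against 25.6% of all features. Mitochondrial ribosomal protein genes had 48 of 77 lower and a median of -0.06. Proteasome subunits had 33 of 38 lower and a median of -0.18. Sham 1 was the highest array for 37 of the 38, against 35.4% of all features. None of these genes passed the test (0 in each list).

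The genes of the immunoproteasome, the interferon-inducible form of the proteasome, were high on 1 sham array only. Psmb9 had 5.37 on sham 1 and 0.73 on sham 2, against 0.88 and 0.29 in BDL kidneys. Psmb8 had 5.73 and 0.99 in sham and 1.41 and 0.83 in BDL. Psmb10 had 6.14 and 2.99 in sham and 3.12 and 2.75 in BDL. The 9 measured interferon response genes had a summed level, in multiples of the 75th percentile, of 29.9 on sham 1, 11.6 on sham 2, 9.21 on BDL 1 and 6.99 on BDL 2.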
